A study of Homo sapiens with 9 samples.

Results

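Genes of the lysosome and of autophagy were compared between PANC-1 cells carrying an empty vector and PANC-1 cells overexpressing SLC22A10 or SLC22A15. The set was a list of 44 genes matched to the expression table by symbol. It held 11 proteases, 12 glycan hydrolases, 6 lipid and phosphate hydrolases, 6 membrane proteins, 3 transcription factors and 6 autophagy factors. Of the 44 genes, 43 had values, and 42 reached 1 CPM (reads scaled to a library of 1e+06) in at least 3 of the 9 libraries and were tested. The table held 16750 genes, of which 14554 passed the same filter. The gene that missed the filter was CTSS, a cysteine protease of antigen-presenting cells, at 0.540 ± 0.389 CPM in vector, 0.458 ± 0.0746 in SLC22A10_OE and 0.455 ± 0.198 in SLC22A15_OE (mean ± SD, n = 3). CTSF was not analysed here.

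PANC-1 is an established human line from an epithelioid carcinoma of the pancreatic duct. The cells had been transduced with lentiviral plasmids, either pLV-EV, which carries no insert, or pLV-SLC22A10 or pLV-SLC22A15. All 3 groups, vector, SLC22A10_OE and SLC22A15_OE, had been selected with puromycin, kept in it as stable clones, and grown in the same serum-containing medium. The SLC22 family comprises organic ion transporters of the plasma membrane. Total RNA was depleted of ribosomal RNA and sequenced from strand-specific libraries, 3 per group. Neither the promoter of the inserts nor the number of clones behind each group is stated, so the p-values measure only the spread between libraries, which may be technical. The sample titles end in A1, A2 and B1, whose meaning is not given, and the columns of values could not be matched to them; libraries are therefore named by group and column number.

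Lysosomes are acidic organelles that break down proteins, glycans and lipids delivered by endocytosis and by autophagy, in which a double membrane encloses cytoplasm and fuses with the lysosome. Their hydrolases work at low pH, heavily glycosylated membrane proteins line the organelle, and ubiquitin-like proteins of the LC3 and GABARAP families are attached to autophagosome membranes. TFEB, TFE3 and MITF are related transcription factors that bind a palindromic element called CLEAR in promoters of lysosomal genes, and TFEB is kept out of the nucleus when the kinase complex mTORC1 phosphorylates it. In pancreatic cancer cells these factors are known to sustain lysosome function and autophagy.

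Since CLEAR elements are the best known shared feature of lysosomal promoters, the promoters were read for the core letters TCACGTGA, which read the same on both strands, in the window from 250 bases before to 50 after each gene's start (RefSeq, GRCh38.p14). Promoter entries matched 33 of the 42 tested genes. The core stood in 4 of the 33 (12.1%), against 1.85% of the 11161 promoters of tested genes and 1.04% of all 27305 promoters. Its inner 6 letters CACGTG, which every core contains, stood in 7 of the 33 (21.2%), against 9.96% and 7.43%. The 4 genes with a core were LAMP1, GAA, CTSA and MCOLN1, and they are shown because they differ in how they behaved below. Each window is at most 30 bases, on the plus strand of GRCh38.p14, with the core in capitals.
LAMP1, chr13:113297199-113297228: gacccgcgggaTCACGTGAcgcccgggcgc
GAA, chr17:80101493-80101522: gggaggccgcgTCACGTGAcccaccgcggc
GAA, chr17:80101538-80101567: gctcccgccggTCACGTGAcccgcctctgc
CTSA, chr20:45891298-45891327: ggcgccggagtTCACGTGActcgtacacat
MCOLN1, chr19:7522571-7522600: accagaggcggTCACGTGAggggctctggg
MCOLN1, chr19:7522598-7522623: gggctaccgggTCACGTGAccgaggc
The cores began 29 and 2 bases before the start of LAMP1 (the second runs past the start and is not printed), 77 and 32 before that of GAA, 26 before that of CTSA, and 42 and 15 before that of MCOLN1. In SLC22A10_OE, GAA and CTSA were higher than in vector, MCOLN1 was lower, and LAMP1 did not pass the test. The core stood in 2 of 23 promoters of genes that were higher in SLC22A10_OE (8.70%) and in 2 of the other 10. A match of these letters is a description of the window and says nothing of whether a factor binds there.

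Library totals ran from 28.4 to 42.9 M reads (1 M is 1e+06), so that 1 CPM stood for 27.8 to 43.4 reads. The transduced genes followed the labels: SLC22A10 was at 85.4 ± 5.53 CPM (SD, n = 3) in SLC22A10_OE, against 0.0281 CPM in vector library 2 and 0 in the other vector libraries and in SLC22A15_OE, and SLC22A15 was at 75.9 ± 2.48 CPM in SLC22A15_OE against 6.11 ± 0.571 in vector and 3.84 ± 0.357 in SLC22A10_OE. One library per group was poor in mitochondrial ribosomal RNA (mt-rRNA): its share of reads was 0.00958% in vector library 1, 0.0151% in SLC22A10_OE library 3 and 0.0111% in SLC22A15_OE library 1, against 0.0454% to 0.0843% in the other 6. These libraries held the highest value of their group for 25, 22 and 19 of the 42 genes and the lowest for 15, 12 and 14. Over the 42 genes, the log2 gap between these libraries and their partners went with the GC content of the transcript (Pearson r = 0.83, a description over genes that share libraries). The log2 difference between SLC22A10_OE and vector had r = 0.12 with GC content.

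In SLC22A10_OE, 29 of the 42 genes (69.0%) were higher than in vector and 5 (11.9%) were lower, while 8 did not pass the test. Among all 14554 genes tested, 34.7% were called higher and 32.5% lower in the same comparison. The members were chosen with earlier results of these data known, so the gap between these shares is only a description. The test was limma on log2(CPM + 1) over all 9 libraries, with Benjamini-Hochberg adjustment over the genes tested and a threshold of 0.05; every fold change on the log2 scale and every adjusted p below is from it unless another tool is named. The pseudocount of 1 CPM makes the log2 values understate changes of genes at a few CPM. The median log2 fold change of the 42 genes was 0.51, against 0.00 over all genes tested, and 21 genes were higher by at least 0.5. Summed over the 42 genes and CTSS, the level was 3235, 3073 and 3089 CPM in vector libraries 1 to 3 and 4129, 4175 and 4286 CPM in SLC22A10_OE, which is 1.34-fold higher with no overlap. In SLC22A15_OE the sum was 3174, 3094 and 3077 CPM, within the range of vector. In bulk RNA, a change in the share of cells that express a gene and a change in the RNA per cell cannot be told apart.

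Centring each library on its median gene moved the log2 fold changes of SLC22A10_OE against vector by -0.12. With centring, 28 of the 42 genes were higher and 8 lower, where all genes split into 26.6% higher and 42.8% lower. The 29 higher genes of the main test kept their direction under centring, and CTSD alone of them lost its call.

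**Figure D1:**
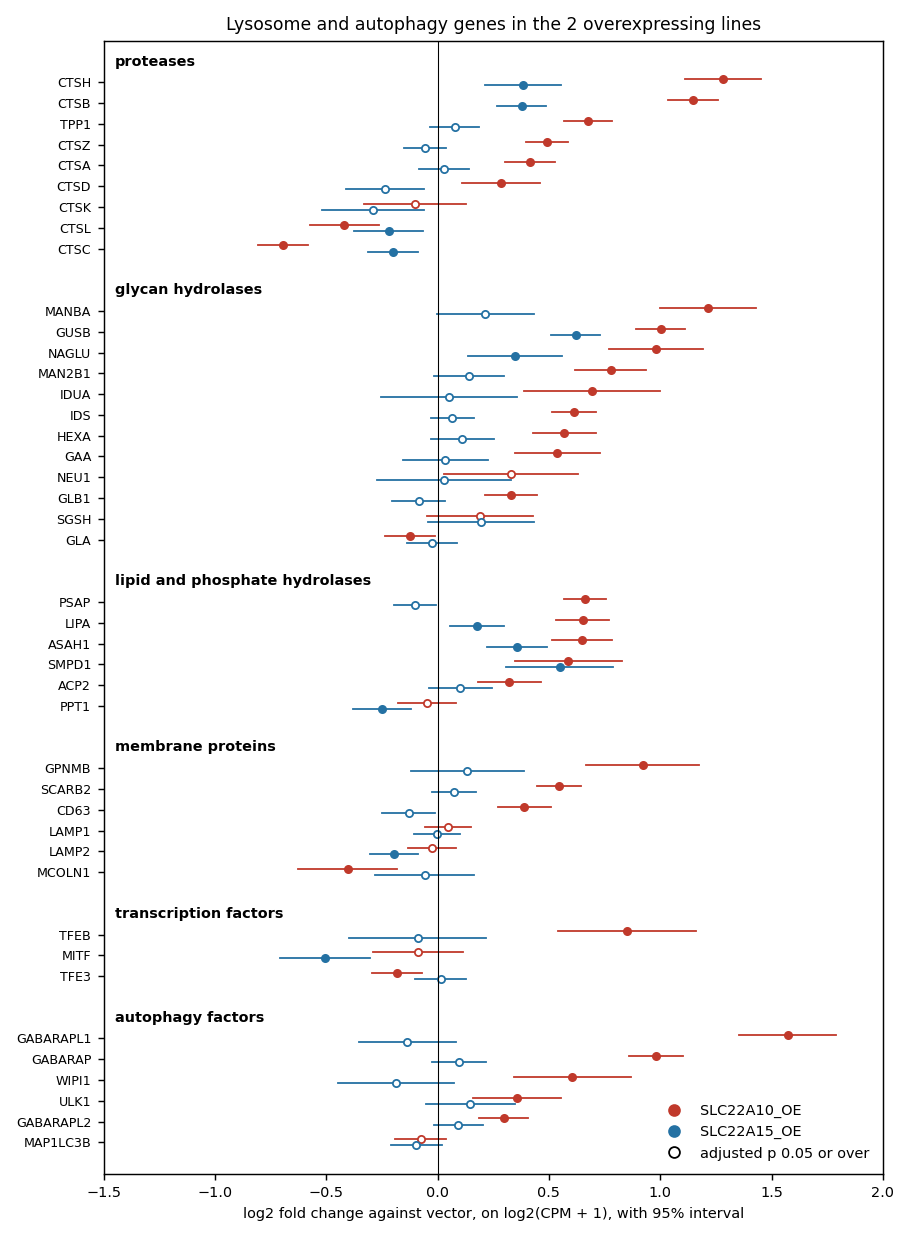
Log2 fold change against vector of the 42 tested genes, by class, for SLC22A10_OE (red) and SLC22A15_OE (blue), on log2(CPM + 1); points are limma estimates, bars 95% intervals, and open points have an adjusted p of 0.05 or over. In SLC22A10_OE 29 filled points lie right of 0 and 5 left of it, and in SLC22A15_OE 7 and 5.

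Among the 9 proteases tested, 6 were higher in SLC22A10_OE (66.7%, against 34.7% of all genes), 2 were lower (22.2%, against 32.5%) and CTSK did not pass. The largest increases were those of CTSH and CTSB. CTSB (Entrez gene 1508, chr8:11842524-11868087, GRCh38.p14) encodes cathepsin B, a cysteine protease that cuts both within chains and at their ends and that tumour cells often secrete. CTSB measured 181, 167 and 163 CPM in the vector libraries, 362, 378 and 395 in SLC22A10_OE and 229, 221 and 214 in SLC22A15_OE. The 3 groups did not overlap, with SLC22A15_OE between the others. The means stood 2.22-fold above vector in SLC22A10_OE (log2 fold change 1.15, SE 0.05, limma adjusted p = 1.01e-09) and 1.30-fold in SLC22A15_OE (0.38, limma adjusted p = 0.000149). CTSH (Entrez gene 1512, chr15:78921058-78945046) encodes cathepsin H, mainly an aminopeptidase. CTSH measured 15.5, 12.7 and 13.7 CPM in vector, 33.8, 36.6 and 35.7 in SLC22A10_OE and 18.0, 18.0 and 19.5 in SLC22A15_OE. It showed the same order of groups without overlap, 2.53-fold above vector in SLC22A10_OE (log2 1.28, SE 0.08, limma adjusted p = 1.96e-08) and 1.32-fold in SLC22A15_OE (0.38, limma adjusted p = 0.00372).

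CTSC (Entrez gene 1075, chr11:88293592-88337736), the dipeptidyl peptidase that activates serine proteases of granules, moved the other way. CTSC measured 97.6, 96.4 and 92.5 CPM in vector, 57.4, 57.4 and 61.0 in SLC22A10_OE and 79.2, 83.5 and 86.1 in SLC22A15_OE. All 3 groups were apart, with vector highest. The log2 fold change was -0.69 (SE 0.05, limma adjusted p = 1.13e-07) in SLC22A10_OE and -0.20 (limma adjusted p = 0.0145) in SLC22A15_OE, where the adjusted p was 0.0570 without SLC22A15_OE library 1. CTSL, a cysteine endopeptidase, fell as well in SLC22A10_OE, from 99.6 ± 7.04 to 74.3 ± 6.91 CPM (SD, n = 3; log2 fold change -0.42, limma adjusted p = 0.000196). In SLC22A15_OE it was at 85.2 ± 3.73 CPM (-0.22, limma adjusted p = 0.0462), and 6 of the 9 fits that left out 1 library lost this call (all but those without vector library 1 or SLC22A10_OE libraries 2 or 3), with adjusted p from 0.0621 to 0.198.

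TPP1, a tripeptidyl peptidase whose loss causes a childhood neuronal storage disease, measured 64.6, 59.7 and 63.1 CPM in vector, 101, 96.9 and 103 in SLC22A10_OE and 66.2, 64.8 and 66.6 in SLC22A15_OE. Its log2 fold change in SLC22A10_OE was 0.68 (limma adjusted p = 1.10e-07), with no overlap with either other group. CTSZ, a carboxypeptidase, measured 105, 105 and 106 CPM in vector, 148 in each of the 3 SLC22A10_OE libraries and 102, 97.2 and 104 in SLC22A15_OE. Its increase in SLC22A10_OE was 0.49 on the log2 scale (SE 0.04, limma adjusted p = 5.87e-07). CTSD, the main aspartic protease of lysosomes, measured 290, 233 and 239 CPM in vector, 293, 301 and 330 in SLC22A10_OE and 233, 211 and 201 in SLC22A15_OE. Vector library 1, poor in mt-rRNA, came close to the lowest SLC22A10_OE library without overlap. The log2 fold change of CTSD in SLC22A10_OE was 0.28 (limma adjusted p = 0.00741), and with centred libraries it was 0.16 with an adjusted p of 0.0795. CTSA, the carboxypeptidase that also stabilises GLB1 and NEU1 in a complex, rose from 117 ± 7.0 to 157 ± 4.23 CPM (SD, n = 3; log2 0.42, limma adjusted p = 1.23e-05). CTSK, the collagen-degrading cathepsin of osteoclasts, was at 10.0 ± 0.635 CPM in vector, 9.29 ± 0.561 in SLC22A10_OE and 8.07 ± 1.23 in SLC22A15_OE and passed in no contrast of the fit of all libraries.

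The glycan hydrolases were higher in SLC22A10_OE for 9 of 12 genes (75%, against 34.7% of all genes), and GLA was lower (8.33%, against 32.5%). MANBA, GUSB and NAGLU showed the largest differences. MANBA (Entrez gene 4126, chr4:102630770-102760968), the beta-mannosidase that removes the last mannose of N-glycan cores, measured 9.26, 12.3 and 11.7 CPM in vector, 28.5, 27.0 and 25.1 in SLC22A10_OE and 12.1, 13.7 and 13.1 in SLC22A15_OE. SLC22A10_OE stood apart, 2.43-fold above vector (log2 1.21, SE 0.10, limma adjusted p = 2.68e-07), while vector and SLC22A15_OE overlapped. GUSB (Entrez gene 2990, chr7:65960684-65982213), the beta-glucuronidase of glycosaminoglycan breakdown and a common reference gene in PCR, measured 35.7, 34.3 and 35.6 CPM in vector, 71.4, 69.3 and 73.9 in SLC22A10_OE and 54.6, 55.1 and 54.2 in SLC22A15_OE. The 3 groups were well separated, 2.03-fold above vector in SLC22A10_OE (log2 1.00, SE 0.05, limma adjusted p = 3.18e-09) and 1.55-fold in SLC22A15_OE (0.62, limma adjusted p = 1.93e-06). NAGLU, which removes glucosamine ends from heparan sulfate, measured 21.6, 20.3 and 17.8 CPM in vector, 39.8, 36.8 and 44 in SLC22A10_OE and 29.2, 24.3 and 23.4 in SLC22A15_OE. No group overlapped another, with log2 fold changes of 0.98 (SE 0.10, limma adjusted p = 1.55e-06) in SLC22A10_OE and 0.35 (limma adjusted p = 0.0224) in SLC22A15_OE. The call in SLC22A15_OE was lost without vector library 3 or SLC22A15_OE library 1, with adjusted p between 0.0831 and 0.109.

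MAN2B1, the alpha-mannosidase, measured 68.9, 56.4 and 62.1 CPM in vector, 100, 109 and 113 in SLC22A10_OE and 72.4, 67.0 and 66.8 in SLC22A15_OE. IDS, the sulfatase missing in Hunter syndrome, measured 75.0, 77.5 and 76.3 CPM in vector, 116, 116 and 120 in SLC22A10_OE and 80.8, 81.6 and 77.4 in SLC22A15_OE. For both genes SLC22A10_OE lay above every other library, with log2 fold changes of 0.78 for MAN2B1 (limma adjusted p = 9.37e-07) and 0.61 for IDS (limma adjusted p = 1.10e-07). IDUA, the iduronidase that follows IDS in the same pathway, measured 12.5, 9.17 and 9.01 CPM in vector, 16.1, 15.3 and 19.9 in SLC22A10_OE and 12.8, 9.67 and 9.35 in SLC22A15_OE. The mt-rRNA-poor library was the highest in each group. The log2 fold change in SLC22A10_OE was 0.69 (SE 0.14, limma adjusted p = 0.000746).

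HEXA, the alpha subunit of beta-hexosaminidase, measured 40.4, 36.2 and 37.4 CPM in vector, 57.0, 59.0 and 54.5 in SLC22A10_OE and 43.7, 41.1 and 38.5 in SLC22A15_OE (log2 0.57 in SLC22A10_OE, limma adjusted p = 5.68e-06). GAA, the glycogen-degrading glucosidase with 2 CLEAR cores shown above, measured 154, 126 and 131 CPM in vector, 188, 188 and 221 in SLC22A10_OE and 156, 134 and 130 in SLC22A15_OE. Again SLC22A10_OE did not overlap the other groups, which overlapped each other (log2 0.54, limma adjusted p = 0.000138). GLB1, the beta-galactosidase, rose from 49.8 ± 1.29 to 62.8 ± 1.02 CPM in SLC22A10_OE (SD, n = 3; log2 0.33, limma adjusted p = 0.000142). GLA, the alpha-galactosidase, was at 52.0 ± 1.35 CPM in vector and 47.6 ± 1.79 in SLC22A10_OE (log2 -0.12, limma adjusted p = 0.0493). This call was lost in 12 of 19 alternative fits, among them the fits without any 1 library other than SLC22A10_OE library 3, where the adjusted p was 0.0557 to 0.145. SGSH, a heparan sulfamidase, was at 38.8 ± 5.69, 44.4 ± 5.18 and 44.4 ± 5.04 CPM in the 3 groups and passed in no contrast of that fit. NEU1, the sialidase, was low at 1.24 ± 0.157 CPM in vector, 1.84 ± 0.496 in SLC22A10_OE and 1.28 ± 0.188 in SLC22A15_OE, and it did not pass either (limma adjusted p = 0.0508 in SLC22A10_OE).

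Of the 6 lipid and phosphate hydrolases, 5 were higher in SLC22A10_OE (83.3%, against 34.7% of all genes) and PPT1 did not pass. PSAP, the precursor of the saposins that present sphingolipids to their hydrolases, had the highest level per kilobase of merged exons of the whole set, 121 CPM per kb in vector and 192 in SLC22A10_OE. PSAP measured 407, 380 and 389 CPM in vector, 600, 625 and 640 in SLC22A10_OE and 375, 358 and 363 in SLC22A15_OE. SLC22A10_OE stood 1.59-fold above vector without overlap (log2 0.66, SE 0.04, limma adjusted p = 3.43e-08), while SLC22A15_OE lay just below vector without passing (-0.10, limma adjusted p = 0.128, or 0.000543 with the column number as a replicate block in a fit of these groups alone). LIPA (Entrez gene 3988, chr10:89213572-89414679), the acid lipase that frees cholesterol from its esters, measured 101, 105 and 104 CPM in vector, 169, 165 and 155 in SLC22A10_OE and 109, 124 and 119 in SLC22A15_OE. Its log2 fold change was 0.65 (limma adjusted p = 3.99e-07) in SLC22A10_OE and 0.18 (limma adjusted p = 0.0406) in SLC22A15_OE. The second call was lost in 9 of 19 alternatives, among them the fits without any 1 library other than SLC22A10_OE library 3 or SLC22A15_OE library 1, where the adjusted p was 0.0505 to 0.172.

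ASAH1, the acid ceramidase, measured 18.5, 19.0 and 19.5 CPM in vector, 30.5, 31.2 and 29.4 in SLC22A10_OE and 24.1, 25.4 and 24.3 in SLC22A15_OE. The groups did not overlap, and SLC22A15_OE lay between the others (log2 0.65, limma adjusted p = 1.08e-06 in SLC22A10_OE, and 0.36, limma adjusted p = 0.00105 in SLC22A15_OE). SMPD1, the acid sphingomyelinase that makes ceramide, measured 11.4, 9.25 and 11.2 CPM in vector, 14.6, 15.5 and 19.2 in SLC22A10_OE and 17.5, 14.7 and 15.6 in SLC22A15_OE. Both overexpressing lines lay above vector without overlap, by 0.59 (limma adjusted p = 0.000426) and 0.55 (limma adjusted p = 0.00319) on the log2 scale. The difference between the lines was -0.04, with a 95% interval that reached from -0.28 to 0.20. ACP2, an acid phosphatase, rose from 17.7 ± 0.632 to 22.4 ± 0.328 CPM in SLC22A10_OE (SD, n = 3; log2 0.32, limma adjusted p = 0.000767). PPT1, which removes fatty acids from modified cysteines, was at 169 ± 6.28 CPM in vector and 164 ± 9.43 in SLC22A10_OE but fell to 142 ± 9.77 in SLC22A15_OE (log2 -0.25, limma adjusted p = 0.00931). With centred libraries PPT1 passed as lower in SLC22A10_OE too, at -0.17.

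**Figure D2:**
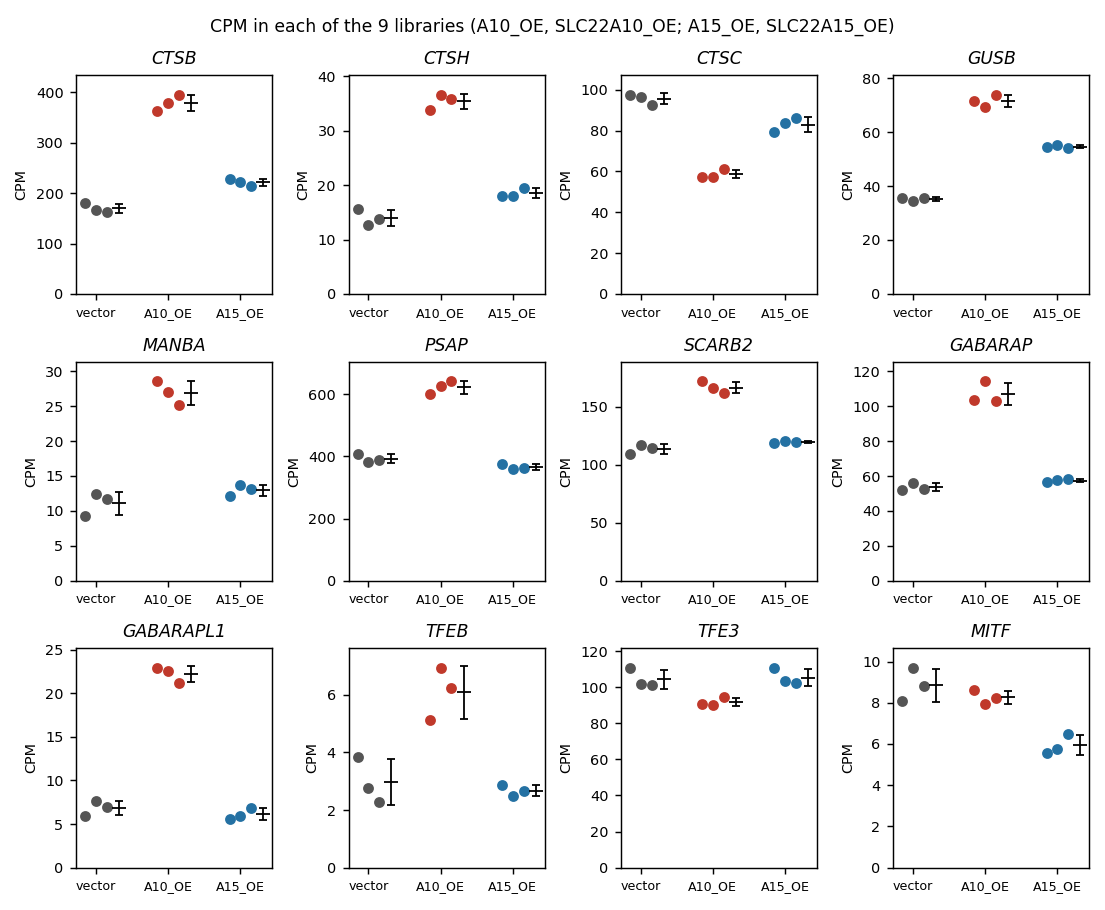
CPM of 12 of the genes in each library, with group means and SDs (n = 3) beside the points; each axis starts at 0. CTSB, CTSH and GUSB have SLC22A15_OE between vector and SLC22A10_OE, CTSC has the reverse order, and GABARAP, GABARAPL1, MANBA, PSAP, SCARB2 and TFEB stand apart in SLC22A10_OE.

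The membrane proteins were divided, with 3 of 6 higher in SLC22A10_OE (50%, against 34.7% of all genes) and MCOLN1 lower (16.7%, against 32.5%). With 6 genes the class is not set apart from all genes, and GPNMB passed the filter only through SLC22A10_OE. LAMP1 and LAMP2, the major glycoproteins of the lysosomal membrane, did not pass there. LAMP1 was at 212 ± 7.97 CPM in vector, 219 ± 7.04 in SLC22A10_OE and 212 ± 8.68 in SLC22A15_OE, and its log2 fold change in SLC22A10_OE was 0.05 with a 95% interval from -0.06 to 0.15 (-0.07 with centred libraries). LAMP2, which also takes part in chaperone-mediated autophagy, was at 186 ± 6.80 and 182 ± 4.17 CPM in vector and SLC22A10_OE (log2 -0.03, limma adjusted p = 0.662) and at 162 ± 8.59 in SLC22A15_OE (-0.20, limma adjusted p = 0.0128). Without vector library 2 or SLC22A15_OE library 1 the adjusted p of LAMP2 in SLC22A15_OE was 0.0516 to 0.0544. With centred libraries LAMP2 also passed as lower in SLC22A10_OE, at -0.15.

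SCARB2, the receptor that carries beta-glucocerebrosidase to lysosomes, measured 109, 117 and 115 CPM in vector, 172, 166 and 162 in SLC22A10_OE and 119, 120 and 120 in SLC22A15_OE. SLC22A10_OE was 1.46-fold above vector with no overlap (log2 0.55, SE 0.05, limma adjusted p = 3.25e-07). CD63, a tetraspanin of late endosomes and secreted vesicles, measured 83.9, 79.7 and 76.9 CPM in vector, 99.5, 109 and 107 in SLC22A10_OE and 75.9, 72.8 and 70.8 in SLC22A15_OE (log2 0.39 in SLC22A10_OE, limma adjusted p = 3.61e-05). GPNMB, a glycoprotein that rises in lysosomal storage, measured 0.246, 0.534 and 0.424 CPM in vector, 1.58, 1.77 and 1.58 in SLC22A10_OE and 0.508, 0.468 and 0.622 in SLC22A15_OE. These were 8 to 62 reads per library, and the ratio of the means was 4.09, while the log2 fold change was 0.92 with the pseudocount of 1 CPM (limma adjusted p = 1.50e-05) and 2.01 in edgeR on recovered reads. GPNMB reached 1 CPM only in the SLC22A10_OE libraries, so it passed the filter through the group where it was high. Its call as higher there is therefore not independent of the filter. MCOLN1, the calcium channel of lysosomes with 2 CLEAR cores, fell from 24.1 ± 2.96 to 17.9 ± 1.69 CPM in SLC22A10_OE (SD, n = 3; log2 -0.40, limma adjusted p = 0.00366) and was at 23.1 ± 2.61 in SLC22A15_OE.

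The 3 transcription factors went in different directions. TFEB (Entrez gene 7942, chr6:41683978-41736223) measured 3.85, 2.76 and 2.28 CPM in vector, 5.12, 6.93 and 6.22 in SLC22A10_OE and 2.86, 2.50 and 2.67 in SLC22A15_OE. Every SLC22A10_OE library was above every other library, 2.06-fold above vector in the mean (log2 0.85, SE 0.14, limma adjusted p = 0.000161). TFE3, the most abundant of the 3 per kilobase (24.4 CPM per kb in vector, against 1.23 for MITF and 0.524 for TFEB), measured 111, 102 and 101 CPM in vector, 90.9, 90.1 and 94.5 in SLC22A10_OE and 111, 103 and 102 in SLC22A15_OE. It was lower in SLC22A10_OE by a small amount without overlap (log2 -0.18, SE 0.05, limma adjusted p = 0.00768). MITF, best known from melanocytes and osteoclasts, measured 8.09, 9.68 and 8.80 CPM in vector, 8.60, 7.93 and 8.24 in SLC22A10_OE and 5.56, 5.77 and 6.50 in SLC22A15_OE. Here SLC22A15_OE was the group apart (log2 -0.51, SE 0.09, limma adjusted p = 0.00167), and vector and SLC22A10_OE overlapped. Summed, the CPM of the 3 factors was 0.913-fold that of vector in SLC22A10_OE, since TFE3 made up most of it. These are transcript levels and do not show where the proteins were in the cell.

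Among the autophagy factors, 5 of 6 were higher in SLC22A10_OE (83.3%, against 34.7% of all genes) and none was lower (against 32.5%). A further list of 32 other autophagy factors, given below, had 37.5% higher and 28.1% lower, near the shares of all genes. GABARAPL1 (Entrez gene 23710, chr12:10212877-10223128), a member of the family attached to autophagosome membranes, had the highest log2 fold change of the set on the log2(CPM + 1) scale; by the ratio of mean CPM and in edgeR, GPNMB at its much lower level exceeded it. GABARAPL1 measured 5.97, 7.65 and 6.89 CPM in vector, 22.9, 22.6 and 21.2 in SLC22A10_OE and 5.59, 5.90 and 6.89 in SLC22A15_OE. SLC22A10_OE was 3.25-fold above vector and far from both other groups, which overlapped (log2 1.57, SE 0.10, limma adjusted p = 2.61e-08). Its relative GABARAP (Entrez gene 11337, chr17:7240008-7242449) measured 51.9, 56.3 and 52.8 CPM in vector, 104, 114 and 103 in SLC22A10_OE and 56.6, 57.5 and 58.2 in SLC22A15_OE. That was 1.99-fold higher in SLC22A10_OE (log2 0.98, SE 0.06, limma adjusted p = 8.53e-09), and 0.10 higher on the log2 scale without passing in SLC22A15_OE (limma adjusted p = 0.263). GABARAPL2 rose less, from 41.3 ± 0.813 to 51.0 ± 0.296 CPM (SD, n = 3; log2 0.30, limma adjusted p = 0.000196).

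MAP1LC3B, the LC3 protein commonly followed as a marker of autophagosomes, was at 77.5 ± 4.52 CPM in vector, 73.3 ± 1.49 in SLC22A10_OE and 72.3 ± 1.32 in SLC22A15_OE. It did not pass in either line in that fit, with a log2 fold change of -0.08 in SLC22A10_OE and a 95% interval from -0.19 to 0.04; with centred libraries it passed as lower there, at -0.20. WIPI1, which binds phosphoinositides on forming autophagosomes, measured 6.31, 7.88 and 9.36 CPM in vector, 11.2, 12.2 and 13.7 in SLC22A10_OE and 6.32, 6.73 and 7.02 in SLC22A15_OE (log2 0.61 in SLC22A10_OE, limma adjusted p = 0.000651). ULK1, the kinase that starts autophagy, rose from 39.9 ± 5.34 to 51.2 ± 4.65 CPM (SD, n = 3; log2 0.36, limma adjusted p = 0.00395).

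Against the same vector libraries, SLC22A15_OE had 7 of the 42 genes higher (16.7%), 5 lower (11.9%) and 30 that did not pass. The shares over all genes tested were 10.8% higher and 9.58% lower, and the median log2 fold change was 0.03 for the 42 genes. The 7 higher genes were the hydrolases CTSB, CTSH, GUSB, NAGLU, SMPD1, LIPA and ASAH1, and the 5 lower genes were CTSC, CTSL, PPT1, LAMP2 and MITF. No autophagy factor passed in this fit, where their log2 fold changes ran from -0.19 to 0.15. Both comparisons with vector share the vector libraries, so their calls are not independent. The calls in SLC22A15_OE depended on how the libraries were handled: 11 genes were higher and 10 lower when vector and SLC22A15_OE alone were fitted with the column number as a replicate block, 11 and 10 with a term for the mt-rRNA-poor libraries, and 10 and 10 without those 3 libraries. Without SLC22A15_OE library 1, 3 genes were lower. The block added MAN2B1 (limma adjusted p = 0.00424), MANBA (0.0297), SGSH (0.000673) and ULK1 (0.0127) as higher in SLC22A15_OE. It added CTSD (limma adjusted p = 4.75e-09), CTSK (0.00988), PSAP (0.000543), CD63 (0.00325) and MAP1LC3B (0.0365) as lower. Their log2 fold changes were those of the fit of all libraries, between -0.29 and 0.21. What the column numbers stand for is not given, so the block is not a known pairing. The blocked fit also leaves few residual degrees of freedom, and the calls it added are uncertain.

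The overexpressing lines were then compared directly, which tests whether they differ from each other. In SLC22A15_OE 30 of the 42 genes were lower than in SLC22A10_OE (71.4%) and 4 were higher (9.52%), against 32.1% lower and 30.8% higher over all genes tested. The 4 higher genes were CTSC, CTSL, MCOLN1 and TFE3, the same genes that, with GLA, were lower in SLC22A10_OE than in vector. The call of CTSL (log2 0.20, limma adjusted p = 0.0284) was lost without SLC22A10_OE library 3 or SLC22A15_OE libraries 2 or 3, with adjusted p from 0.0866 to 0.136, and that of MCOLN1 (0.35, limma adjusted p = 0.0103) without SLC22A10_OE library 2, with an adjusted p of 0.0567. On the log2(CPM + 1) scale GABARAPL1 differed most, by -1.71 (SE 0.10, limma adjusted p = 2.73e-08), followed by MANBA at -1.0 (limma adjusted p = 2.39e-06) and TFEB at -0.94 (limma adjusted p = 8.40e-05). GPNMB was at -0.79 on that scale and at -1.61 in edgeR. By the ratio of mean CPM, GABARAPL1 was 3.63-fold lower, GPNMB 3.09-fold, TFEB 2.28-fold and MANBA 2.08-fold. On that measure GPNMB and TFEB came before MANBA. By class, 6 of 9 proteases, 9 of 12 glycan hydrolases, 5 of 6 lipid and phosphate hydrolases, 4 of 6 membrane proteins, 2 of 3 transcription factors and 4 of 6 autophagy factors were lower in SLC22A15_OE. CTSB, CTSH, GUSB, NAGLU, LIPA and ASAH1, higher than vector in both lines, were lower in SLC22A15_OE than in SLC22A10_OE by 0.29 to 0.90, and SMPD1 did not pass. Centring moved this contrast by 0.09 and left 26 genes lower and 5 higher (PPT1, ACP2, LAMP2 and GABARAPL2 lost their calls), where all genes split into 25.5% lower and 39.8% higher.

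Further genes of the pathway were grouped by role, in lists also chosen with earlier results of these data known. Of 26 other hydrolases and their activators, 19 were higher in SLC22A10_OE (73.1%, against 34.7% of all genes) and 1 was lower (3.85%, against 32.5%). Their median log2 fold change was 0.48. DNASE2, the acid nuclease that digests DNA taken up by lysosomes, measured 29.1, 24.0 and 26.0 CPM in vector, 53.4, 57.4 and 64.5 in SLC22A10_OE and 30.6, 28.0 and 27.5 in SLC22A15_OE (log2 1.12 in SLC22A10_OE, limma adjusted p = 1.30e-07). GM2A, the activator that lifts ganglioside GM2 to beta-hexosaminidase, measured 45.2, 46.4 and 46.3 CPM in vector, 81.2, 83.1 and 87.1 in SLC22A10_OE and 43.1, 42.2 and 41.1 in SLC22A15_OE. SLC22A10_OE stood above all other libraries for both genes, and the log2 fold change of GM2A was 0.85 (limma adjusted p = 1.47e-08). FUCA1, the fucosidase, was higher in both lines, by 1.09 (limma adjusted p = 1.30e-06) and 0.40 (limma adjusted p = 0.0176). ARSB, a sulfatase of dermatan sulfate, was the lower one, at 54.7 ± 2.34 CPM in vector and 32.4 ± 2.09 in SLC22A10_OE (SD, n = 3; log2 -0.74, limma adjusted p = 2.67e-07). In SLC22A15_OE 4 of the 26 were higher (15.4%, near the 10.8% of all genes) and 22 did not pass.

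In the remaining lists, counts in SLC22A10_OE stand against 34.7% of all genes higher and 32.5% lower. Of 19 subunits of the V-ATPase, the proton pump of the lysosome, 7 were higher (36.8%) and 6 lower (31.6%), near those shares. ATP6V0A2, a membrane subunit, fell from 34.9 ± 2.69 to 17.6 ± 2.23 CPM (SD, n = 3; log2 -0.95, limma adjusted p = 8.71e-07), and ATP6V1F rose from 39.6 ± 2.78 to 59.1 ± 3.67 (0.57, limma adjusted p = 8.48e-06). Of 21 other membrane proteins, 8 were higher (38.1%) and 5 lower (23.8%), among them the lipid transporter ABCA2 at 1.29 (limma adjusted p = 1.18e-07) and OSTM1, a subunit of a chloride exchanger, at -0.70 (limma adjusted p = 8.77e-07). Of 19 genes for delivery to the lysosome, 6 were higher (31.6%) and 3 lower (15.8%). VPS39 of the tethering complex HOPS was at 0.56 (limma adjusted p = 3.40e-07), and VPS18 of the same complex at -0.43 (limma adjusted p = 0.00134). Of 32 other autophagy factors, 12 were higher (37.5%) and 9 lower (28.1%); ULK2 was at 0.45 (limma adjusted p = 4.93e-06) and ATG16L1, which helps to attach LC3 to membranes, at -0.47 (limma adjusted p = 5.72e-06).

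Of 11 cargo receptors of autophagy, 6 were higher in SLC22A10_OE (54.5%, against 34.7% of all genes) and 4 lower (36.4%, against 32.5%). BNIP3L, a receptor for mitochondria, measured 35.0, 40.8 and 38.5 CPM in vector, 150, 152 and 138 in SLC22A10_OE and 44.7, 46.6 and 49.3 in SLC22A15_OE. It rose by 1.92 on the log2 scale in SLC22A10_OE (SE 0.07, limma adjusted p = 1.03e-10) and by 0.29 in SLC22A15_OE (limma adjusted p = 0.00617), with no overlap between groups. NBR1, a receptor for ubiquitinated cargo, rose from 138 ± 6.14 to 219 ± 6.40 CPM in SLC22A10_OE (log2 0.66, limma adjusted p = 1.08e-07), and TAX1BP1 was lower in both lines, by -0.26 (limma adjusted p = 0.0117) and -0.32 (limma adjusted p = 0.0125). Of 29 genes of mTORC1 signalling at the lysosome, 12 were higher (41.4%) and 2 lower (6.90%) in SLC22A10_OE. Their log2 fold changes ran from -0.54 to 1.30. RRAGD, a Rag GTPase that TFEB is known to induce, rose from 54.4 ± 2.83 to 98.3 ± 1.96 CPM in SLC22A10_OE (SD, n = 3; log2 0.84, limma adjusted p = 1.65e-07) and was at 50.3 ± 4.46 in SLC22A15_OE. Whether TFEB had a part in this rise was not tested. DEPTOR, an inhibitor of mTOR, rose from 1.56 ± 0.159 to 5.27 ± 0.281 CPM (log2 1.30, limma adjusted p = 2.16e-07). CST3, a secreted inhibitor of cysteine cathepsins, rose from 75.6 ± 9.17 to 118 ± 10.7 CPM (log2 0.64, limma adjusted p = 3.56e-05) as 1 of 2 cystatins tested.

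**Figure D3:**
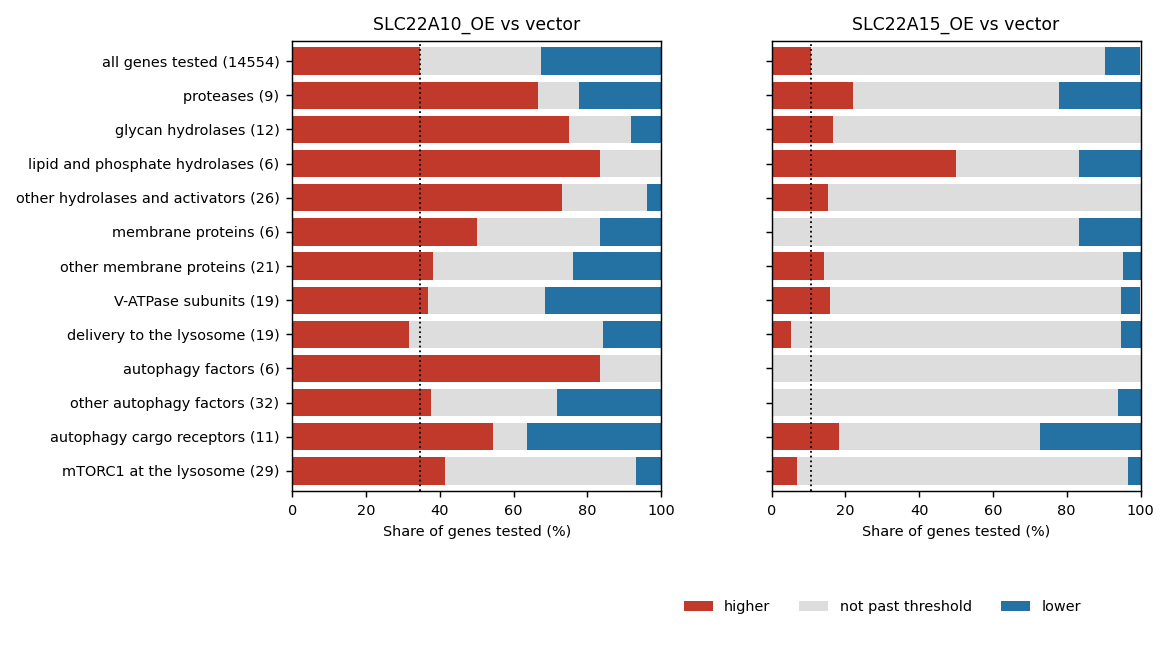
Share of the tested genes of each list called higher (red), lower (blue) or not past the threshold (grey) against vector, in SLC22A10_OE and SLC22A15_OE; list sizes are in parentheses and dotted lines mark the share of all 14554 genes called higher. In SLC22A10_OE the 4 hydrolase lists and the 6 autophagy factors have 66.7% to 83.3% of genes higher, against 34.7% of all genes. The V-ATPase subunits have 36.8% and the 32 other autophagy factors 37.5%.

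Markers of cell types were read beside these genes. Of the 5 ductal markers tested, 3 were higher (60%) and 1 lower (20%) in SLC22A10_OE, against 34.7% and 32.5% of all genes. In SLC22A15_OE 1 was higher (20%) and 3 lower (60%), against 10.8% and 9.58% of all genes. Ductal markers (6 of 10 with values, 4 not analysed here) summed to 440 to 479 CPM in vector, 557 to 618 in SLC22A10_OE and 295 to 330 in SLC22A15_OE; KRT19, a duct keratin, was at 73.2 ± 7.65, 216 ± 16.8 and 70.2 ± 5.30 CPM in the 3 groups (SD, n = 3), and MUC1 at 4.16 ± 0.157, 24.3 ± 1.65 and 8.37 ± 0.316. The keratin KRT18 was at 162 ± 1.47, 99.2 ± 3.23 and 95.4 ± 0.373 CPM, and its partner KRT8 at 91.4 ± 9.0, 88.9 ± 4.4 and 47.5 ± 5.63. Macrophage and osteoclast markers, read because such cells are rich in cathepsins and GPNMB, summed to 7.06 to 7.88 CPM in vector, 14.3 to 15.9 in SLC22A10_OE and 7.31 to 7.97 in SLC22A15_OE. Of those 14 markers 5 had values and 9 were not analysed here. Among the 4 tested, 2 were higher in SLC22A10_OE (50%, against 34.7% of all genes), 1 was lower (25%, against 32.5%) and 1 did not pass. CD14, a lipopolysaccharide receptor, was higher in SLC22A10_OE (0.612 ± 0.0677 CPM in vector and 8.14 ± 0.874 in SLC22A10_OE, log2 2.50, limma adjusted p = 8.46e-10), while CSF1R, the receptor that defines macrophages, was lower (1.44 ± 0.317 and 0.851 ± 0.0711 CPM). The rise of the sum in SLC22A10_OE was mostly that of CD14. CD14 was under 1 CPM in vector and reached the filter through the SLC22A10_OE libraries, where it was high. The call of CD14 as higher, and the rise of the sum, are therefore not independent of the filter. Melanocyte markers (4 of 6 with values) summed to 2.56 to 3.94 CPM over all 9 libraries. Of the 2 tested, 1 was lower in SLC22A10_OE (50%, against 32.5% of all genes). The part of these markers in the results was not tested.

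Genes near each other on a chromosome can move together, so each gene was set beside the median log2 fold change of the tested genes within a window of 10 Mb around it, where at least 20 such genes lay (40 of 42 genes). Over the 40 genes, the median of these neighbour values was 0.00 in SLC22A10_OE and 0.01 in SLC22A15_OE. The neighbours of ASAH1, on chromosome 8, had a median of 0.53 in SLC22A10_OE and 0.45 in SLC22A15_OE, where ASAH1 itself was at 0.65 and 0.36. Those of CTSB, also on chromosome 8, were at 0.29 and 0.33, where CTSB was at 1.15 and 0.38. For GUSB on chromosome 7 the neighbours were at 0.12 and 0.23, against 1.00 and 0.62 for GUSB. For CTSH and SMPD1 in SLC22A15_OE they were at 0.01 and -0.03. In SLC22A10_OE the neighbours of CD63 and MAN2B1 were at 0.20 and 0.22, against 0.39 and 0.78 for the genes themselves. Those of TFE3 and MCOLN1 were at 0.17 and 0.21, where the genes were at -0.18 and -0.40. Among the further genes, BNIP3L lay on chromosome 8 with neighbours at 0.41 and 0.39, and the V-ATPase subunits ATP6V1F and ATP6V0E2 lay on chromosome 7 with neighbours at 0.30 and 0.59 in SLC22A10_OE and 0.45 and 0.55 in SLC22A15_OE. The part of chromosome position in these results was not tested.

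**Figure D4:**
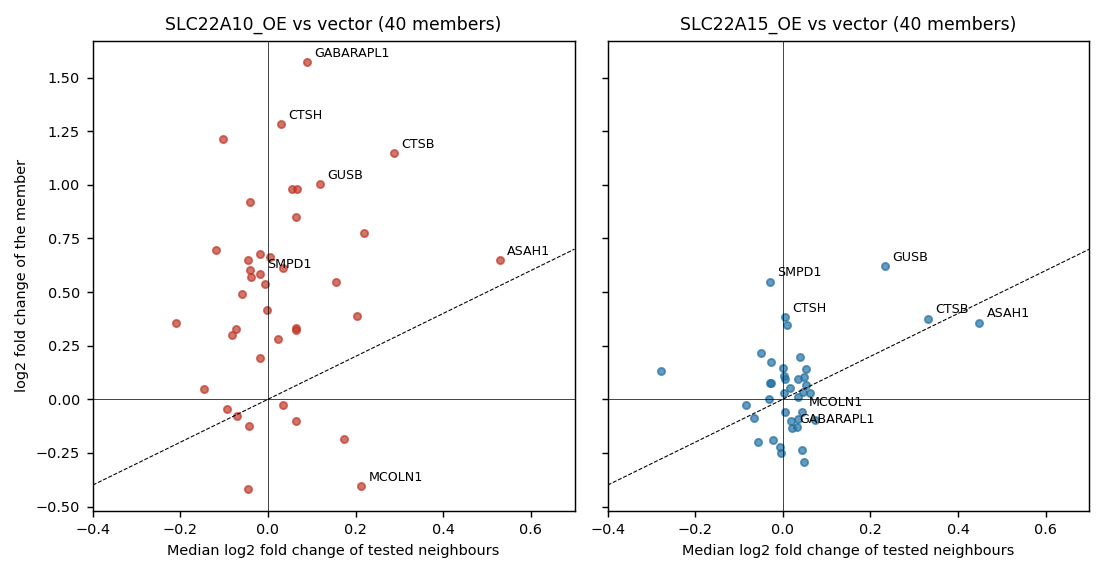
Log2 fold change against vector of 40 genes (vertical) against the median of the tested genes within a 10 Mb window around each (horizontal), for SLC22A10_OE and SLC22A15_OE, with the line of equality dashed. In SLC22A10_OE most genes lie above the line with neighbour medians near 0, and in SLC22A15_OE CTSB and ASAH1 lie near it.

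Some genes share reads or position with others, and the sources used here do not say whether the authors' counting used strand. LIPA overlaps IFIT1, IFIT2 and IFIT3 on the opposite strand, interferon-induced genes whose log2 fold changes were 2.86, 3.02 and 3.26 in SLC22A10_OE and 0.77, 0.52 and 1.17 in SLC22A15_OE. CTSA overlaps PLTP, a lipid transfer protein, which rose from 10.1 to 38.4 CPM in SLC22A10_OE (log2 1.83, limma adjusted p = 1.31e-09). PPT1 overlaps CAP1 on the opposite strand, at 450 CPM in vector and 391 in SLC22A15_OE (log2 -0.20, limma adjusted p = 0.00279). Without strand, reads of LIPA, CTSA and PPT1 could not be told from those of these partners where they overlap. GUSB has 7 pseudogene copies among the genes tested, of which 4 were lower in SLC22A10_OE, as with GUSBP1 at -0.51 (limma adjusted p = 5.31e-05), and the level of GUSB is uncertain as far as reads are shared with them. MAP1LC3B has the near copy MAP1LC3B2, at 20.6 CPM in vector and 18.7 in SLC22A10_OE.

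The authors' deposited table of SLC22A10_OE against vector, at an FDR under 0.05, had 29 of the 42 genes higher and 4 lower, and their deposited table of SLC22A15_OE had 7 higher and 5 lower. The sign of the fold change in both of the authors' deposited tables was that of limma for 42 of 42 genes.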

How the data were processed

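The authors deposited CPM per gene and library for 3 vector, 3 SLC22A10_OE and 3 SLC22A15_OE libraries. For each overexpressing line against vector, the deposited tables hold log2 fold changes, log2 mean CPM values and p-values with FDR, per the file headers. The submitters' processing notes name edgeR and the builds hg38 and mm9; the aligner, counting program and annotation are not named in those sources. Library totals of 28.4 to 42.9 M reads and the whole reads behind the CPM values were recovered, 100% of values lying within 0.1 read of a whole number.

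Genes at 1 CPM or more in at least 3 libraries were tested with limma 3.58.1 (R 4.3.3, mean trend) on log2(CPM + 1), all 9 libraries in 1 fit with 6 residual degrees of freedom and 3 contrasts. P-values were two-sided, adjusted by Benjamini-Hochberg over 14554 genes, with a threshold of 0.05. The procedure was tested on simulated data. The members and all gene lists were chosen with earlier results of these data known. One gene of a further list was taken out of it and is not reported here. Members past the threshold with a log2 fold change of at least 0.5 in size in any contrast, and TFEB, TFE3 and MITF, are given per library; of each further list, up to 3 genes by smallest adjusted p in each contrast with vector were eligible to be named. The genes singled out for their neighbours or overlaps, and the genes drawn in the plot of CPM by library, were chosen after their values were seen.

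Alternatives were a pseudocount of 0.25 CPM, no filter, centred libraries, edgeR 4.0.16 and DESeq2 1.42.0 on the recovered reads, fits of 2 groups, each library left out, a replicate block and, added after seeing the data, 2 further fits. Column numbers come from the file headers. Deviations of same-numbered vector and SLC22A15_OE libraries correlated at 0.57, 0.31 and 0.19, all over 0.1, so the blocked fit of these groups is given too; for vector and SLC22A10_OE the values were -0.41, 0.14 and -0.27. Differently numbered vector and SLC22A15_OE libraries lay between -0.48 and 0.35, and the 3 mt-rRNA-poor libraries correlated at 0.48 to 0.57 with each other whatever their number. Exon lengths and GC content came from GENCODE release 29, and positions and promoters from RefSeq tables of GRCh38.p14.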

Additional observations from a re-analysis of the deposited data

How the results depend on the processing

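Against vector, 32 of the 34 calls in SLC22A10_OE held in all 19 alternatives (CTSD and GLA did not), as did 7 of 12 in SLC22A15_OE (CTSC, CTSL, NAGLU, LIPA and LAMP2 did not) and 28 of 34 between the lines (CTSL, PPT1, ACP2, LAMP2, MCOLN1 and GABARAPL2 did not). Leaving out 1 library gave 29 to 31 genes higher and 4 to 5 lower in SLC22A10_OE, 5 to 9 higher and 3 to 7 lower in SLC22A15_OE, and 3 to 4 higher and 30 to 31 lower between the lines. With centred libraries 8 genes were lower in SLC22A10_OE. With a term for the mt-rRNA-poor libraries, 11 were higher and 10 lower in SLC22A15_OE, and without those 3 libraries 10 were lower; the cause was not tested. With the column number as a replicate block over all 9 libraries the counts were 29 and 4, 7 and 5, and 4 and 30; with the block in fits of 2 groups they were 29 and 4, 11 and 10, and 4 and 29. edgeR and DESeq2 gave 29 higher and 5 lower in SLC22A10_OE. Depth limits GPNMB, NEU1 and CTSS, which had under 100 reads in every library.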
